A study of Mus musculus with 8 samples.

Results

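The RNA levels of 10 genes of the NRF2 antioxidant response were measured in the distal colon of mice with and without the stress-response transcription factor HSF1. The genes are *Nfe2l2*, *Keap1*, *Nqo1*, *Gclc*, *Gclm*, *Hmox1*, *Txnrd1*, *Srxn1*, *G6pdx* and *Gpx2*. They were chosen by symbol, as the regulator, its inhibitor and 8 established targets, from the 15859 genes in the deposited counts, and all 10 were found. RNA was sequenced from 8 male mice on a mixed BALB/c and 129SvEV background, 2 in each of 4 groups, and the labels give an age of 10 weeks for every mouse. Untreated WT and *Hsf1* null mice formed the WT day 0 and *Hsf1* null day 0 groups. The WT day 15 and *Hsf1* null day 15 groups received 10 mg/kg of the carcinogen azoxymethane (AOM) by intraperitoneal injection at 8 weeks, and from day 7 drank water with 1.5% dextran sulfate sodium (DSS), an irritant of the gut lining, for 5 days. The null allele is carried by the whole animal and not by a chosen cell type, and the WT mice were littermates.

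NRF2, encoded by *Nfe2l2*, is a transcription factor that pairs with small MAF proteins and binds the antioxidant response element. KEAP1 holds NRF2 in the cytoplasm and delivers it to a ubiquitin ligase for degradation, and oxidants or electrophiles that modify KEAP1 release it. Much of NRF2's control is therefore at the level of protein, so that its RNA does not measure its activity. Its targets make glutathione, keep thioredoxin and glutathione reduced with NADPH, remove peroxides and break down heme and quinones. In the colon, oxidants come both from luminal bacteria and from recruited immune cells, and *Gpx2* encodes the glutathione peroxidase typical of the gut epithelium.

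The promoters of the genes carry the element to which NRF2 binds to different extents, and the matches are printed here because they show which genes hold it close to their start. Windows of 250 bases before to 50 bases after a transcription start (RefSeq, GRCm38.p6) were searched on both strands for the core letters TGACNNNGC. Of the 8 genes with a window, 5 held a match (*Nfe2l2*, *Gclm*, *Txnrd1*, *Srxn1* and *G6pdx*), against 12.39% of 32851 windows and 13.99% of 27025 genes overall. *Gclc* and *Hmox1* had no window. The 4 matches upstream of a start are given on the strand of the gene with up to 20 bases on each side, and capitals mark the match, which is written in the reverse complement in all but *Nfe2l2*.
Nfe2l2: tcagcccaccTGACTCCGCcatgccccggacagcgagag
Gclm: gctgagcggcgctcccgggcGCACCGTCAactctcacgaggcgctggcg
Txnrd1: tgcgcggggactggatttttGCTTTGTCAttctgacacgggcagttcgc
G6pdx: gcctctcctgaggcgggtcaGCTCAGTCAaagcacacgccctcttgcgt
They lie at chr2:75704875-75704913 on the minus strand, chr3:122245403-122245451 on the plus strand, chr10:82859094-82859142 on the plus strand and chrX:74428909-74428957 on the minus strand. The matches begin 240, 134, 92 and 57 bases upstream of the start, and that of *Txnrd1* belongs to 1 of its annotated starts. In *Srxn1* the match GCTAGGTCA begins 29 bases after the start. The windows of *Nqo1*, *Keap1* and *Gpx2* did not hold these letters. The heat shock element bound by HSF1, searched as GAANNTTC, was found in 0 of the 8 genes and in 9.036% of all genes with a window. A match is a description of the letters and not a measured binding site.

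Total counts were between 2553348 and 12440257 per mouse, with the smallest libraries in replicate 2 of both day 0 groups. Levels are given in CPM, that is, counts scaled to a common library size with edgeR's TMM factors, and no gene of the 10 had fewer than 26 counts in any mouse. The deleted gene *Hsf1* (chromosome 15, 76477422 to 76501913) lay between 36.5 and 50.5 CPM in the 4 WT mice and between 9.09 and 14.0 CPM in the 4 *Hsf1* null mice, so that the genotypes matched their labels. None of the 10 genes is on chromosome 15. The tissue carried all 10 listed epithelial markers in every mouse, among them *Epcam* and *Vil1*, with summed levels between 9879 and 23206.5 CPM, alongside markers of fibroblasts, smooth muscle and immune cells. In such bulk tissue, fewer cells of a type and less RNA per cell cannot be told apart.

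The most abundant of the 10 was *Gpx2*, and its level varied most between mice. Per kilobase of its main transcript, *Gpx2* was the highest of the 10 in each of the 4 groups, with 283 ± 63.4 CPM per kb in WT mice at day 0 and 2676 ± 549 CPM per kb in WT mice at day 15 (SD, n = 2 mice). *Gclm* was the lowest in each group, with means between 4.07 and 8.73 CPM per kb. On that scale *Nfe2l2* had rank 2 in both day 0 groups, and came after *G6pdx*, *Txnrd1* and *Hmox1* in both day 15 groups. At day 15 its rank was 5 in WT and 8 in *Hsf1* null mice. Some neighbours in this order lay within each other's spread, for example *G6pdx* (74.8 ± 10.7 CPM per kb) and *Txnrd1* (72.6 ± 6.79 CPM per kb) in WT mice at day 15. Across the 8 mice, the highest CPM was 15.7 times the lowest for *Gpx2*, 9.60 times for *Hmox1*, 7.38 times for *Nfe2l2* and between 2.02 and 3.81 times for the other 7.

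**Figure D1:**
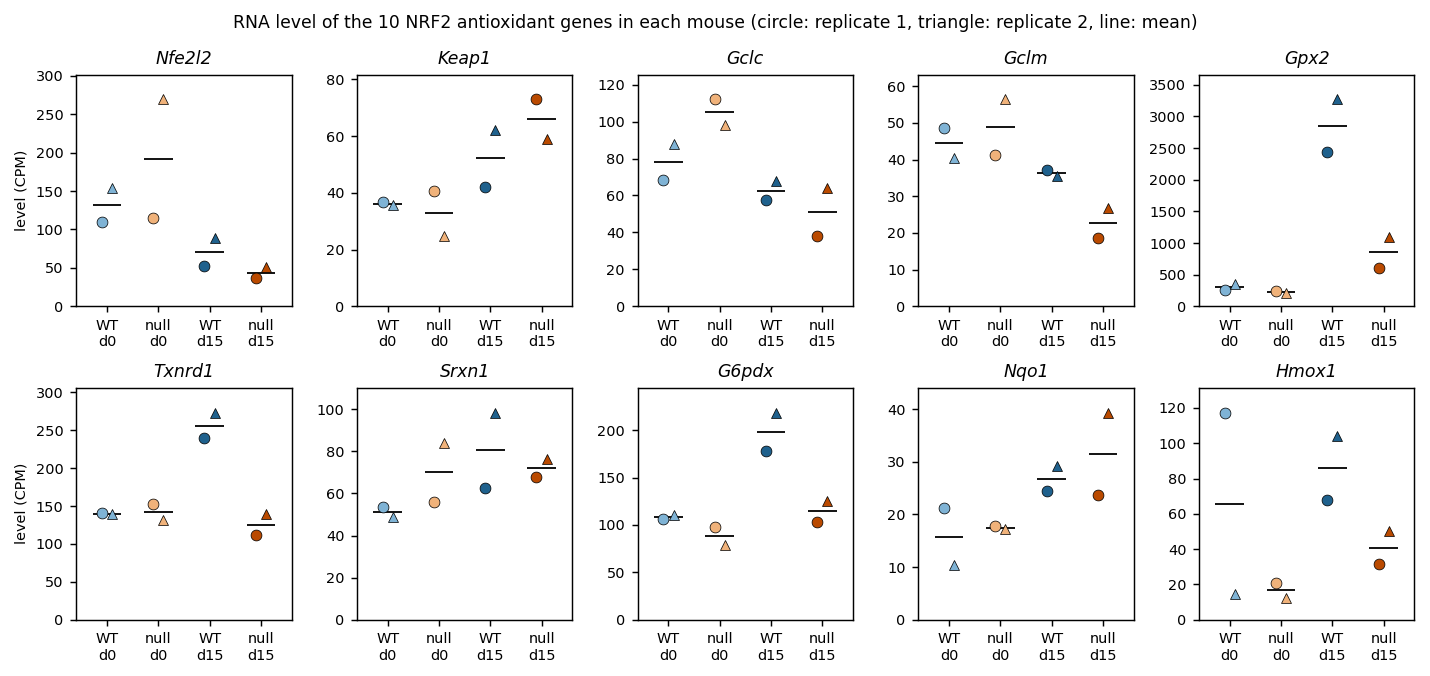
RNA level in CPM of each of the 10 genes in each mouse, with 1 panel per gene, the 4 groups along the horizontal axis, circles for replicate 1, triangles for replicate 2 and a line at the group mean. *Gpx2* reached 2441 and 3269.6 CPM in the WT mice at day 15, whereas a single WT mouse at day 0 stood out in *Hmox1*, at 117 CPM.

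To test which of these genes depended on HSF1 and which on AOM–DSS treatment, edgeR's quasi-likelihood test was applied to 14371 genes, those whose mean normalized count exceeded 5, with all 4 groups in 1 model. All 10 genes passed that filter, and each did so in every group. A gene was called when its Benjamini-Hochberg adjusted p over all genes tested was under 0.05 and its log2 fold change beyond 1 in either direction. At day 15, *Gpx2* and *Txnrd1* were higher in WT than in *Hsf1* null mice, and the other 8 genes were not called. In untreated mice 0 of the 10 were called. The deleted gene *Hsf1* was not called there either (log2 fold change 1.57, adjusted p = 0.775 from edgeR), although its level did not overlap between the genotypes. An absent call at day 0 therefore does not show an absent difference. From day 0 to day 15, *Gpx2* rose in both genotypes, while *Nfe2l2*, *Gclc* and *Gclm* fell in *Hsf1* null mice. The comparisons share mice, since the groups at day 15 enter both the comparison of genotypes and that of days.

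At day 15, 2 of the 10 genes were called, against 3.17% of all genes tested, and both were higher in WT mice, a direction in which 1.25% were called. In 6 of the 10 genes the WT and *Hsf1* null mice did not overlap, close to the 54.8% of all genes for which this held. The log2 fold change between WT and *Hsf1* null mice was positive in 8 of the 10, with a median of 0.68 against 0.035 over all genes. At day 0, where 0% of all genes were called and the mice of the genotypes did not overlap in 37.1%, 4 of the 10 did not overlap and the median was -0.065. At an unadjusted p under 0.05, *Hmox1* alone of the 10 differed at day 0 in edgeR, as did 904 of all genes, and DESeq2 called 18 genes and 0 of the 10. Within WT mice, 1 of the 10 was called between the days (7.74% of all genes), and 9 of the 10 did not overlap (62.5% of all genes). Within *Hsf1* null mice, 4 of the 10 were called (11.8% of all genes), 3 of them lower and 1 higher at day 15, where 6.48% of all genes were called lower and 5.3% higher. In 8 of the 10 the days did not overlap in *Hsf1* null mice, against 61.3% of all genes.

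**Figure D2:**
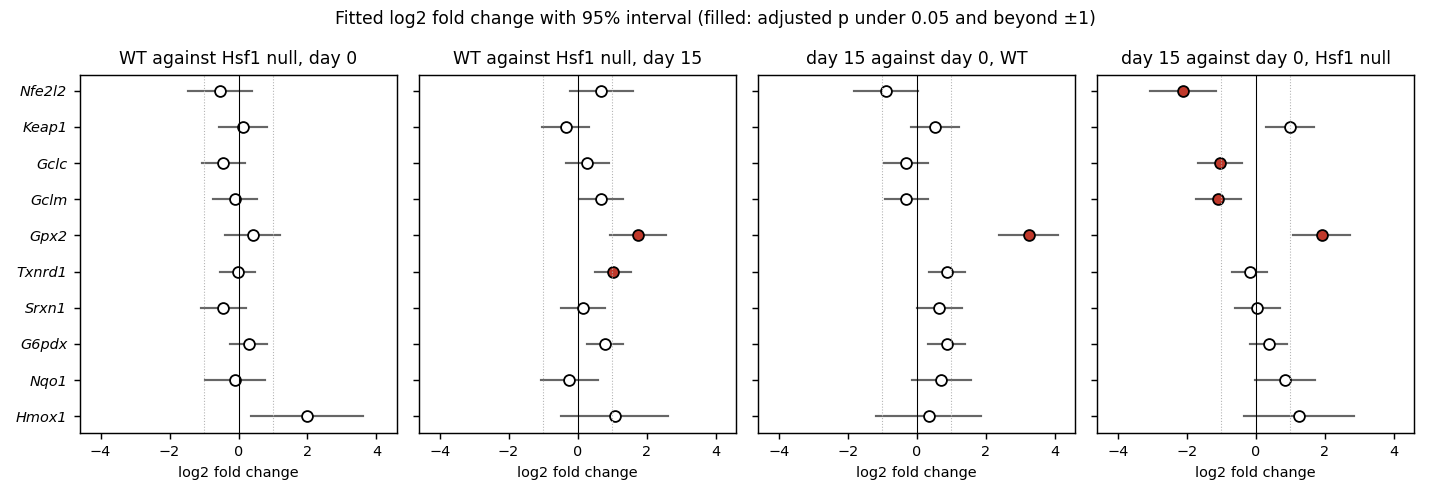
Fitted log2 fold change of each gene (points) with its 95% interval (lines) in the 4 comparisons, where filled points had an adjusted p under 0.05 and lay beyond the dotted lines at 1 and -1. *Gpx2* lies farthest to the right at day 15, at 1.74 between the genotypes and 3.25 and 1.91 between the days, and the points for day 0 are all open.

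Among the glutathione genes, *Gpx2* (ENSMUSG00000042808, chromosome 12, 76792333 to 76795554) reduces hydrogen peroxide and fatty acid hydroperoxides with glutathione. Untreated WT mice had 254 and 349 CPM of *Gpx2* and untreated *Hsf1* null mice 246 and 208 CPM. Treated WT mice had 2441 and 3269.6 CPM, and treated *Hsf1* null mice 609 and 1097 CPM. Every treated mouse thus lay above every untreated mouse, and the treated WT mice lay above the treated *Hsf1* null mice. *Gpx2* rose 9.48-fold in WT mice (log2 fold change 3.25, standard error 0.39, adjusted p = 0.00591 from edgeR) and 3.75-fold in *Hsf1* null mice (1.91, standard error 0.37, adjusted p = 0.0174). At day 15 it was 3.35-fold higher in WT mice (1.74, 95% interval 0.93 to 2.55, adjusted p = 0.0369), and at day 0 the log2 fold change was 0.41 (adjusted p = 0.865). Ordered by CPM among the 14371 genes tested, *Gpx2* ranked between 442 and 794 in the untreated mice. It ranked 250 and 84 in the treated *Hsf1* null mice, and 18 and 7 in the treated WT mice.

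The day 15 call of *Gpx2* was lost without either *Hsf1* null mouse of day 0 (adjusted p = 0.0767 and 0.0766 without replicate 1 and 2), without WT day 15 replicate 2 (0.172), without *Hsf1* null day 15 replicate 1 (0.238), and when only the groups compared were fitted (0.104). Its rise in *Hsf1* null mice was lost without *Hsf1* null day 0 replicate 2 (0.167) or *Hsf1* null day 15 replicate 2 (0.0602), whereas its rise in WT mice stood without any 1 mouse, with adjusted p up to 0.0274, and was lost without both replicate 2 mice of day 0 (0.0968). The *Hsf1* null mice of day 0 are in neither group compared at day 15 and enter only through the shared model. Without either of them the log2 fold change of *Gpx2* at day 15 stayed at 1.74. The day 15 call of the deleted gene *Hsf1* (log2 fold change 2.10, adjusted p = 0.0137 from edgeR) was lost in the same fits. The processed pseudogene *Gpx2-ps1*, to which reads of *Gpx2* could be assigned, had between 0 and 13 counts per mouse.

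The treated groups did not overlap in the summed level of most cell marker lists. The summed level of the 10 epithelial markers at day 15 was lower in WT mice (14690.5 and 16001 CPM) than in *Hsf1* null mice (23206.5 and 20338 CPM), with all 10 lower in WT mice and 0 called, and in 7 of them the treated groups did not overlap. Markers of absorptive colonocytes (6 of 6 listed) summed to 590.05 and 1369.9 CPM in treated WT against 5055 and 1912 CPM in treated *Hsf1* null mice, those of goblet cells (6 of 6) to 6758 and 8523 against 25733 and 15708 CPM, and those of smooth muscle (6 of 6) to 2051 and 1111 against 3387 and 3440.5 CPM. The lists of 6 other cell types were higher in treated WT mice. In the same order, fibroblast markers (6 of 6) summed to 2321 and 2344 against 438 and 1408 CPM, macrophage markers (8 of 8) to 1212 and 1904 against 269.6 and 730.0 CPM, and endothelial markers (5 of 5) to 285 and 232 against 59.6 and 129.9 CPM. Neutrophil markers (5 of 6) summed to 115 and 484 against 6.20 and 22.6 CPM, with *S100a8* at 0 in 1 treated *Hsf1* null mouse, T cell markers (5 of 6) to 75.2 and 119.7 against 30.4 and 58.8 CPM, and B cell markers (5 of 5) to 3145 and 3446 against 217 and 432 CPM. In crypt base and dividing cells the sums overlapped. Against the goblet cell sum, 1 of its 6 markers had a positive log2 fold change between treated WT and *Hsf1* null mice. The part of the cell composition in the difference of *Gpx2* was not tested.

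The markers also moved between the days. In WT mice all 6 smooth muscle markers were called lower at day 15 (median log2 fold change -1.82), as were 2 of 6 for absorptive colonocytes (-1.94), 2 of 6 for goblet cells (-1.08) and 1 of 6 for crypt base and dividing cells, while 3 of 5 for neutrophils (6.59), 3 of 8 for macrophages (1.28) and 1 of 5 for T cells (1.99) were called higher. In *Hsf1* null mice 2 markers of absorptive colonocytes, 1 of fibroblasts and 1 of B cells were called lower, and 1 each of epithelium, crypt base and dividing cells, neutrophils and T cells higher. The epithelial markers summed to 9879 and 14318 CPM in untreated WT and to 16915 and 11113 CPM in untreated *Hsf1* null mice, below both treated *Hsf1* null mice. The part of these shifts in the changes of *Gpx2*, *Nfe2l2*, *Gclc* and *Gclm* between the days was not tested.

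*Gclc* and *Gclm* encode the catalytic and the modifier subunit of glutamate–cysteine ligase, which makes the rate-limiting step of glutathione synthesis. *Gclc* (ENSMUSG00000032350, chromosome 9, 77754535 to 77794485) had 68.5 and 87.7 CPM in untreated WT, 112 and 98.1 CPM in untreated *Hsf1* null, 57.4 and 67.6 CPM in treated WT, and 38.3 and 64.1 CPM in treated *Hsf1* null mice. *Gclm* (ENSMUSG00000028124, chromosome 3, 122245557 to 122270732) had 48.7 and 40.5 CPM in untreated WT, 41.1 and 56.4 CPM in untreated *Hsf1* null, 37.1 and 35.6 CPM in treated WT, and 18.6 and 26.9 CPM in treated *Hsf1* null mice. For both subunits the treated mice lay below the untreated mice of their genotype. In *Hsf1* null mice *Gclc* fell by 1.04 on the log2 scale (standard error 0.29, adjusted p = 0.0429 from edgeR) and *Gclm* by 1.09 (standard error 0.29, adjusted p = 0.0389). In WT mice the log2 fold changes were -0.32 for *Gclc* and -0.30 for *Gclm* (adjusted p = 0.504 and 0.525 from edgeR).

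Between the genotypes at day 15, *Gclm* did not overlap (log2 fold change 0.67, adjusted p = 0.193 from edgeR) and *Gclc* did (0.29, adjusted p = 0.578). The fall of both subunits in *Hsf1* null mice was close to the threshold. That of *Gclc* was called only without *Hsf1* null day 15 replicate 2 when each mouse was left out in turn, with adjusted p between 0.0530 and 0.187 in the other 7 fits. The call of *Gclm* was lost without each of 6 mice, namely both WT mice of day 0, WT day 15 replicate 1, *Hsf1* null day 0 replicate 2 and both *Hsf1* null mice of day 15, with adjusted p between 0.0521 and 0.242. With only the *Hsf1* null mice in the fit, the adjusted p were 0.0627 and 0.0634, and with counts thinned to the smallest library both calls were lost too (log2 fold change -0.999 and -1.05, adjusted p = 0.0432 and 0.0505).

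*Txnrd1*, *Srxn1* and *G6pdx* serve the thioredoxin system and its supply of NADPH. *Txnrd1* (ENSMUSG00000020250, chromosome 10, 82833951 to 82897712) encodes the cytosolic thioredoxin reductase, a selenoprotein that reduces thioredoxin. Untreated mice had 141 and 139 CPM with and 153 and 132 CPM without *Hsf1*, and treated mice had 239 and 273 CPM with and 112 and 139 CPM without it. Only the treated WT mice stood apart, at a mean of 256 ± 24.0 CPM (SD, n = 2 mice), and the *Hsf1* null mice of the 2 days overlapped. At day 15 *Txnrd1* was 2.04-fold higher in WT mice (log2 fold change 1.03, 95% interval 0.52 to 1.54, adjusted p = 0.0453 from edgeR). From day 0 to day 15 the log2 fold change was 0.87 in WT mice (adjusted p = 0.0470, below the threshold on the fold change) and -0.18 in *Hsf1* null mice (adjusted p = 0.621).

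The difference of *Txnrd1* between the genotypes at day 15 was called without *Hsf1* null day 15 replicate 2 and lost without any 1 of the other 7 mice, with adjusted p between 0.0704 and 0.256. It was also lost with only the day 15 mice in the fit (adjusted p = 0.120) and with the replicate number as a block (adjusted p = 0.0595 from edgeR, log2 fold change 1.03). Leaving out single mice moved the log2 fold change between 0.87 and 1.2. The marker lists given for *Gpx2* moved with the same treated groups, and their part in the difference of *Txnrd1* was not tested.

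*G6pdx* (ENSMUSG00000031400, chromosome X, 74409483 to 74429194) encodes glucose-6-phosphate dehydrogenase, which opens the pentose phosphate pathway and yields NADPH. Its levels were 106 and 110.4 CPM in untreated WT, 98.0 and 78.3 CPM in untreated *Hsf1* null, 178 and 218 CPM in treated WT, and 103 and 126 CPM in treated *Hsf1* null mice. The WT mice lay above the *Hsf1* null mice at both days, with log2 fold changes of 0.29 at day 0 (adjusted p = 0.856 from edgeR) and 0.79 at day 15 (adjusted p = 0.0906). Between the days the log2 fold change was 0.87 in WT mice (adjusted p = 0.0515) and 0.37 in *Hsf1* null mice (adjusted p = 0.304). *G6pdx* shares 418 bases of exons, 13.6% of its own, with *Ikbkg* on the opposite strand, which had between 110 and 571 counts where *G6pdx* had between 218 and 2068.

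*Srxn1* (ENSMUSG00000032802, chromosome 2, 152105516 to 152111376) encodes sulfiredoxin, which restores overoxidized peroxiredoxins. It varied least of the 10, from 48.8 CPM in a WT mouse at day 0 to 98.4 CPM in a WT mouse at day 15. Untreated WT and *Hsf1* null mice had 53.4 and 48.8 CPM, and 56.1 and 84.1 CPM, respectively, and their treated counterparts had 62.8 and 98.4 CPM, and 67.6 and 76.2 CPM. The genotypes overlapped at day 15, and no comparison of *Srxn1* was called (log2 fold changes between -0.44 and 0.65).

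The regulator and its inhibitor lay on opposite sides of 0 between the days. *Nfe2l2* (ENSMUSG00000015839, chromosome 2, 75675513 to 75704641) had 110.1 and 154 CPM in untreated WT and 115 and 269 CPM in untreated *Hsf1* null mice. The treated WT mice had 52.8 and 89.3 CPM, and the treated *Hsf1* null mice 36.5 and 51.4 CPM. All 4 treated mice lay below all 4 untreated mice. In *Hsf1* null mice *Nfe2l2* was 4.35-fold lower at day 15 (log2 fold change -2.12, standard error 0.43, adjusted p = 0.0199 from edgeR), and in WT mice the log2 fold change was -0.89 (adjusted p = 0.195). The untreated *Hsf1* null mice differed most, and without replicate 2, at 269 CPM, the log2 fold change in *Hsf1* null mice was -1.39 (adjusted p = 0.167). Without *Hsf1* null day 15 replicate 1 or replicate 2 the adjusted p was 0.0786 and 0.0553. Between the genotypes the log2 fold change was -0.54 at day 0 and 0.69 at day 15 (adjusted p = 0.848 and 0.341 from edgeR).

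*Keap1* (ENSMUSG00000003308, chromosome 9, 21229730 to 21239361), the inhibitor, had 36.7 and 35.7 CPM in untreated WT and 40.7 and 24.8 CPM in untreated *Hsf1* null mice. Treated WT mice had 42.0 and 62.2 CPM, and treated *Hsf1* null mice 72.9 and 59.1 CPM. The treated mice lay above the untreated mice of their genotype, with log2 fold changes of 0.52 in WT (adjusted p = 0.303 from edgeR) and 0.99 in *Hsf1* null mice (adjusted p = 0.0615). Neither change was called, although without *Hsf1* null day 0 replicate 1 the second was 1.41 (adjusted p = 0.0424). The genotypes overlapped at both days.

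*Nqo1* and *Hmox1* are the most widely used reporters of NRF2 activity, and neither was called in any comparison. *Nqo1* (ENSMUSG00000003849, chromosome 8, 107388225 to 107403206) encodes the quinone reductase that converts quinones to hydroquinones in a single step. Levels of *Nqo1* were 21.2 and 10.3 CPM in untreated WT, 17.7 and 17.2 CPM in untreated *Hsf1* null, 24.4 and 29.1 CPM in treated WT, and 23.7 and 39.3 CPM in treated *Hsf1* null mice. Treated mice lay above untreated mice in both genotypes, with log2 fold changes of 0.72 in WT and 0.85 in *Hsf1* null mice (adjusted p = 0.256 and 0.157 from edgeR). The untreated levels rest on few reads, with 26 counts in WT and 48 in *Hsf1* null day 0 replicate 2.

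*Hmox1* (ENSMUSG00000005413, chromosome 8, 75093621 to 75100589) encodes heme oxygenase 1, which opens the heme ring and is abundant in macrophages that take up red cells. Untreated WT mice had 117 and 14.3 CPM of *Hmox1* and untreated *Hsf1* null mice 21.0 and 12.2 CPM, while treated WT mice had 67.8 and 104 CPM and treated *Hsf1* null mice 31.3 and 50.3 CPM. The untreated WT mice differed by more than any treated pair did, and replicate 1 was above all other mice. After treatment the WT mice lay above the *Hsf1* null mice (log2 fold change 1.07, standard error 0.69, adjusted p = 0.379 from edgeR). The difference at day 0 (log2 fold change 1.98, adjusted p = 0.775) rested on WT day 0 replicate 1, without which it was -0.26. Without that mouse the change between the days in WT mice was 2.58 in place of 0.34 (adjusted p = 0.0366 in place of 0.776), and without WT day 0 replicate 2 it was -0.44.

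The same mouse was high in the summed markers of several cell types, macrophages among them. The summed level of the 8 macrophage markers was 975 and 372 CPM in untreated WT, 372 and 517 CPM in untreated *Hsf1* null, 1212 and 1904 CPM in treated WT, and 269.6 and 730.0 CPM in treated *Hsf1* null mice. WT day 0 replicate 1 had the highest sum of the untreated mice, mostly from *Lyz2* (642 CPM), and was the highest of them in 5 of the 8 markers. *Adgre1*, *Mrc1* and *Cd163* were instead highest in *Hsf1* null day 0 replicate 2. The sums of WT day 0 replicate 1 were also the highest of the untreated mice for fibroblasts (2479 CPM, against 771 to 1130.2 CPM, with 3 of 6 markers highest there), T cells (33.2 against 10.4 to 12.7 CPM), B cells (1899.9 against 574 to 1665 CPM), neutrophils (10.8 against 3.18 to 3.94 CPM), endothelium (140.5 against 85.4 to 112 CPM) and crypt base and dividing cells (496 against 296 to 426 CPM). The same mouse had the lowest sums for smooth muscle (4566 against 4932 to 7170.02 CPM), epithelium (9879 against 11113 to 16915 CPM), absorptive colonocytes (2371 against 4092 to 7335 CPM) and goblet cells (13120.5 against 14337 to 17354 CPM). Counted by marker, this mouse was highest of the untreated mice in 5 of 5 for T cells and 5 of 5 for B cells. It was so in 3 of 5 for neutrophils, 3 of 5 for endothelium and 2 of 6 for crypt base and dividing cells. It was lowest in 4 of 6 for smooth muscle, 5 of 10 for epithelium, 5 of 6 for absorptive colonocytes and 3 of 6 for goblet cells. Against these sums, it was highest in 1 epithelial and lowest in 1 crypt base marker. At day 15 all 8 macrophage markers had a positive log2 fold change between WT and *Hsf1* null mice, with a median of 1.44, and 2 were called. *Cd163*, which marks resident macrophages, had 0 counts in *Hsf1* null day 15 replicate 1. The part of these cells in the level of *Hmox1* was not tested.

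**Figure D3:**
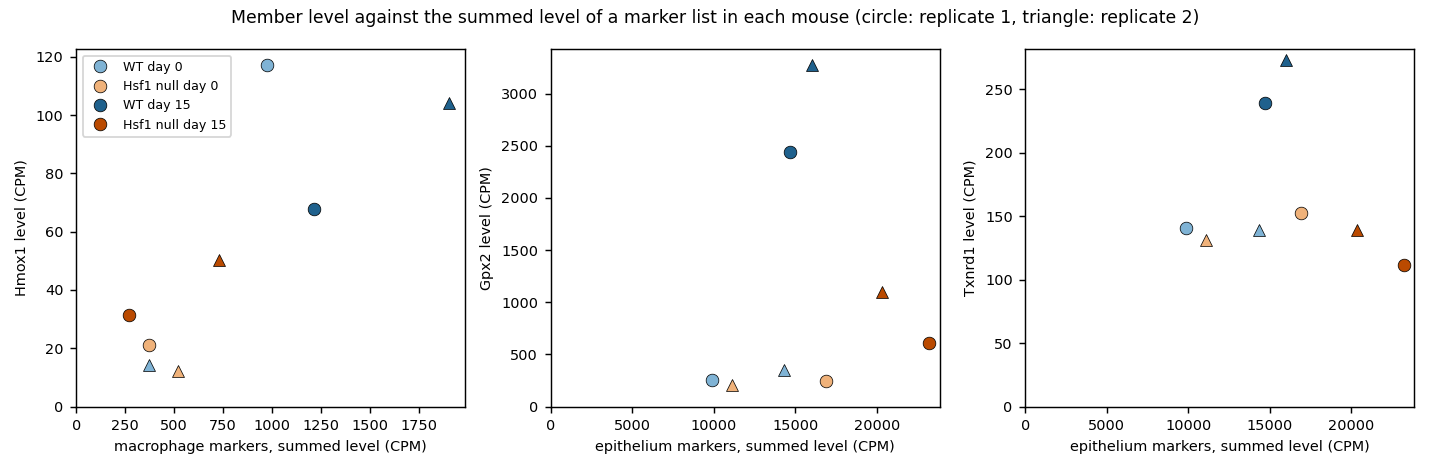
Level in CPM of *Hmox1* against the summed CPM of 8 macrophage markers, and of *Gpx2* and *Txnrd1* against that of 10 epithelial markers, with 1 point per mouse colored by group (circles for replicate 1, triangles for replicate 2). *Hmox1* was at 117 CPM in the untreated WT mouse with 975 CPM of macrophage markers, and the treated WT mice were highest in *Gpx2* and *Txnrd1* at 14690.5 and 16001 CPM of epithelial markers.

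A further test, of the interaction of genotype and day, asked whether the genotypes responded unequally to treatment. It was passed by 0 of the 10 genes and by 0.00696% of all genes (1 gene), with 2 of the 10 and 1239 of all genes at an unadjusted p under 0.05, and DESeq2 called 130 genes and 0 of the 10. The change of *Txnrd1* was higher by 1.05 on the log2 scale in WT mice (95% interval 0.33 to 1.78, unadjusted p = 0.00878 and adjusted p = 0.430 from edgeR). That of *Gpx2* was higher by 1.34 (95% interval 0.21 to 2.46, unadjusted p = 0.0242 and adjusted p = 0.510). For *Nfe2l2* the difference was 1.23 (95% interval -0.068 to 2.53, adjusted p = 0.607 from edgeR), so that the fall called in *Hsf1* null mice was not shown to differ from the change in WT mice. The same holds for *Gclc* and *Gclm*, with differences of 0.72 and 0.79 (adjusted p = 0.658 and 0.621).

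To place the 10 genes in the wider pathway, 36 other NRF2 targets were listed by name, of which 35 were in the counts and 34 were tested. At day 15, 11 of these were higher and 23 lower in WT than in *Hsf1* null mice (median log2 fold change -0.32), and 1 was called (2.94%, against 3.17% of all genes). That gene, *Gstm1*, encodes a glutathione transferase and was lower in WT mice, at 218 and 117 CPM against 684 and 555 CPM in *Hsf1* null mice (log2 fold change -1.89, adjusted p = 0.0357 from edgeR). Reads of *Gstm1* can be shared with its close paralogs, and its call was lost with only the groups compared in the fit (adjusted p = 0.0875) and without either *Hsf1* null mouse of day 0 (adjusted p = 0.0703 and 0.0697), WT day 15 replicate 2 (0.202) or *Hsf1* null day 15 replicate 1 (0.183). The lower genes included 14 of the 18 of detoxification and transport (median -0.65), 4 of the 5 NADPH genes (-0.32) and all 3 thioredoxin genes (-0.49). By contrast, 3 of the 4 glutathione genes (median 0.81) and 3 of the 4 iron and heme genes (0.27) were higher in WT mice, with 0 called in both groups. Epithelial, absorptive colonocyte and goblet cell markers were also lower in the treated WT mice, and their part in these values was not tested. At day 0 their median was 0.017, and 0 were called.

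Between the days, 4 of the 34 were called in WT mice (11.8%, against 7.74% of all genes) and 5 in *Hsf1* null mice (14.7%, against 11.8%), shares near those of all genes. The detoxification genes *Mgst1* and *Ugdh*, which encode a microsomal glutathione transferase and UDP-glucose dehydrogenase, fell in both genotypes, with log2 fold changes of -1.84 and -1.78 in WT mice, and -1.64 and -1.78 without *Hsf1* (adjusted p between 0.0065 and 0.0134 from edgeR). *Ptgr1*, which encodes an alkenal and prostaglandin reductase, rose in both, by 1.07 in WT and 1.58 in *Hsf1* null mice (adjusted p = 0.0328 and 0.0134). Among the 5 NADPH genes, *Pgd*, which encodes the second NADPH-producing enzyme of the pentose phosphate pathway, was at 189 and 202 CPM in WT mice at day 0 and 475 and 429 CPM at day 15 (log2 fold change 1.21, adjusted p = 0.0297). *Taldo1*, encoding transaldolase of the same pathway, had a log2 fold change of 1.11 in *Hsf1* null mice (adjusted p = 0.0238) and of 0.63 in WT mice (adjusted p = 0.128), without overlap between the days in either. The glutathione-cleaving *Ggt1* rose in *Hsf1* null mice (1.90, adjusted p = 0.0478 from edgeR), from 1.23 and 1.80 CPM to 4.03 and 6.69 CPM. In WT mice it had 3.14 and 2.38 CPM at day 0 and 10.5 and 7.92 CPM at day 15 (1.69, adjusted p = 0.0662). The call of *Ggt1* in *Hsf1* null mice was lost without any 1 of the 8 mice (adjusted p between 0.0628 and 0.187), with thinned counts (0.0547), with the replicate block (0.0639) and with only the *Hsf1* null mice in the fit (0.0940). In WT mice the calls of *Pgd* and *Ptgr1* were lost without any 1 of the 4 WT mice (adjusted p between 0.0855 and 0.187), that of *Ugdh* without WT day 0 replicate 2 or WT day 15 replicate 2 (0.0644 and 0.0792), and that of *Mgst1* without WT day 15 replicate 2 (0.0513). The WT call of *Ptgr1* was also lost with thinned counts (log2 fold change 0.83, adjusted p = 0.0574). In *Hsf1* null mice all 4 calls of *Mgst1*, *Ugdh*, *Ptgr1* and *Taldo1* were lost without *Hsf1* null day 0 replicate 2 (adjusted p between 0.123 and 0.177), and that of *Taldo1* also without *Hsf1* null day 15 replicate 2 (0.0717) or with only the *Hsf1* null mice in the fit (0.0527).

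None of the 3 thioredoxin and 4 iron and heme genes was called in any comparison. In the thioredoxin group the log2 fold change at day 15 was -0.78 for the peroxiredoxin gene *Prdx6* and -0.49 for thioredoxin itself, *Txn1* (adjusted p = 0.310 and 0.417 from edgeR), both on the other side of 0 from *Txnrd1*. In the iron and heme group it was 0.69 for ferritin light chain, *Ftl1*, and 0.32 for biliverdin reductase, *Blvra* (adjusted p = 0.193 and 0.596). Of 12 regulators and partners of NRF2, 0 were called in WT mice or between the genotypes, and 2 in *Hsf1* null mice (16.7%, against 11.8% of all genes). The small MAF gene *Mafg*, whose product pairs with NRF2, rose in *Hsf1* null mice from 7.31 and 9.34 CPM to 23.4 and 19.1 CPM (log2 fold change 1.38, adjusted p = 0.0303 from edgeR), and had 9.51 and 8.73 CPM at day 0 and 17.1 and 17.7 CPM at day 15 in WT mice (0.93, adjusted p = 0.105). In *Hsf1* null mice *Nfe2l3*, a relative of *Nfe2l2*, fell from 6.16 and 7.55 CPM to 0.931 and 1.47 CPM (-2.47, adjusted p = 0.0320 from edgeR). The treated *Hsf1* null mice had only 6 and 11 counts of it. WT mice went the other way, from a lower level of 1.86 and 0.794 CPM at day 0 to 2.35 and 3.49 CPM at day 15, and were not called. Both calls were lost without any 1 of the 4 *Hsf1* null mice, with adjusted p between 0.0582 and 0.187, and with counts thinned to the smallest library (log2 fold change 0.98, adjusted p = 0.105 for *Mafg*, and -2.26, 0.0537 for *Nfe2l3*). That of *Mafg* was also lost with only the *Hsf1* null mice in the fit (0.0557). Without both replicate 2 mice of day 0, all calls of the regulators and other NRF2 targets were lost (adjusted p between 0.0852 and 0.293).

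**Figure D4:**
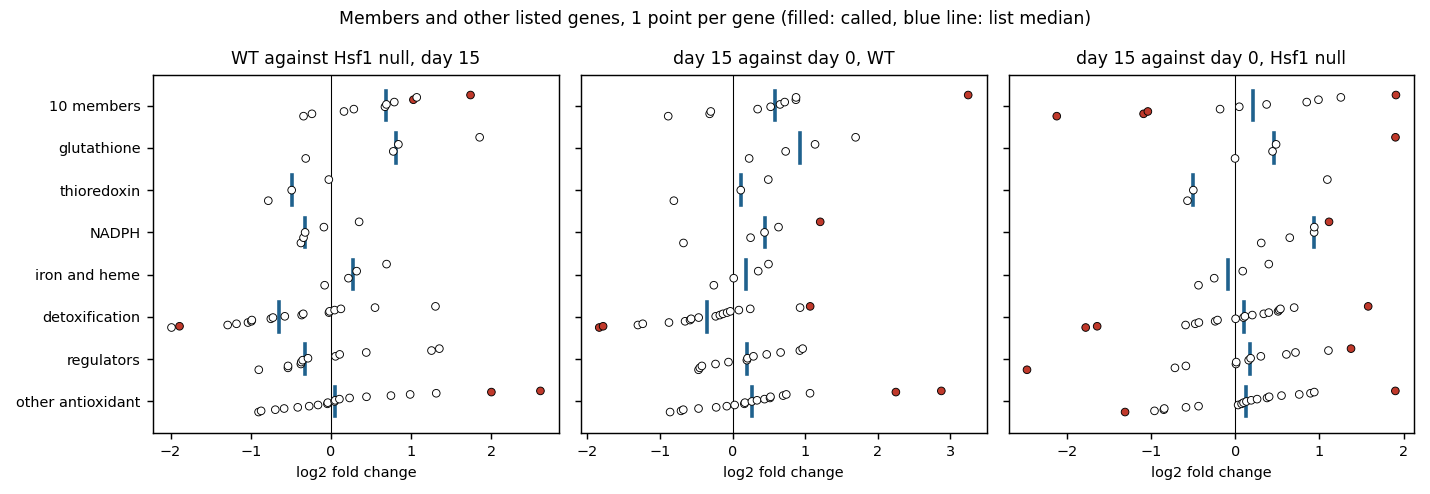
Log2 fold change of each of the 10 genes and of each gene in the other lists (1 point per gene, filled where called, with a bar at the list's median) between the genotypes at day 15 and between the days in each genotype. Between the genotypes at day 15 the median of the 10 genes was 0.68 and that of the detoxification list -0.65.

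Within the glutathione peroxidase family, treatment moved *Gpx2* from a minor to a major share of the RNA. Summed per kilobase over the 6 genes *Gpx1*, *Gpx2*, *Gpx3*, *Gpx4*, *Gpx7* and *Gpx8*, *Gpx2* made up 24.8% and 26.2% in untreated WT, and 21.9% and 20.02% in untreated *Hsf1* null mice. With treatment the WT mice reached 60.4% and 68.4%, and the *Hsf1* null mice 39.9% and 54.7%. *Gpx1*, the widely expressed member, was the highest of the family in all 4 untreated mice and in *Hsf1* null day 15 replicate 1, and *Gpx2* in the other 3 treated mice. The genotypes did not overlap in this share at either day.

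**Figure D5:**
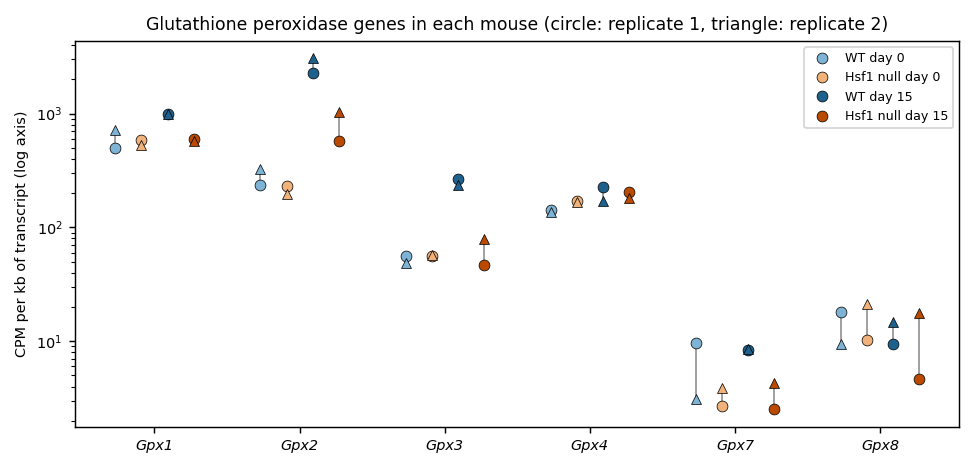
Level of the 6 glutathione peroxidase genes in CPM per kilobase of transcript (log axis) in each mouse, colored by group, with circles for replicate 1 and triangles for replicate 2. *Gpx2* passes *Gpx1* in both treated WT mice, at 2287 and 3064 CPM per kb.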

How the data were processed

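RNA of the distal colon was sequenced by the authors from polyadenylated RNA, aligned to mm10 with STAR and deposited as raw counts per gene symbol. The program that counted the reads and its annotation are not given in the sources used here, nor is the use of strand. A second deposited table gives the same counts divided by 1 size factor per sample from DESeq2, a normalized signal that was used only to check the counts. The days are counted from the AOM injection, and by the study's methods the treated mice were killed at day 15, after the course of DSS had ended.

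The deposited counts were fitted with edgeR 4.0.16 under R 4.3.3 (TMM, 1 model of 4 groups over 8 mice), and adjusted p-values come from that fit over 14371 genes unless stated. The 10 genes and all lists were chosen with earlier results of these data known. Other genes were named where they passed the threshold in any comparison, at most 4 per list, or by the 2 smallest p at day 15 where none did. With 2 mice a group, the edgeR p-values use a spread pooled over the 4 groups and drawn toward that of other genes. They describe these 8 mice only, and an exact permutation test of single values cannot go below p = 0.333. Transcript lengths and positions come from GENCODE M21 on GRCm38 (mm10). Alternatives were DESeq2 1.42.0 and its size factors, other filters, no threshold on fold, the replicate number as a block, only the groups compared, thinned counts and each mouse left out. The fits of edgeR and DESeq2 were also run on simulated counts, for the comparison of genotypes at day 15 only.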

Additional observations from a re-analysis of the deposited data

How the results depend on the processing

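Alternatives left most directions of the 10 genes in place. Of their values 775 kept their direction and side of the threshold, 43 dropped out of it, 3 entered it and 19 changed sign. Most of the 775 were not called in the main fit and stayed so, while the 43 all fell on its few calls. Of 17 alternatives each, the day 15 call was lost in 10 for *Txnrd1* and 6 for *Gpx2*. In *Hsf1* null mice the call was lost in 10 for *Gclc*, 9 for *Gclm*, 4 for *Nfe2l2* and 3 for *Gpx2*. The call of *Gpx2* in WT mice was lost in 1. With DESeq2 in place of edgeR, the genes called were 1197 between genotypes at day 15, 18 at day 0, 1737 between days in WT mice and 130 for the difference in change. Fitting only the groups compared gave 6 genes and 0 of the 10 at day 15, and 1380 genes and 2 of the 10 in *Hsf1* null mice. Without a filter on low counts the difference in change had 2 genes, as it did with thinned counts, which left 2 of the 10 called in *Hsf1* null mice, with 1618 genes called. With no threshold on fold, 2 of the 10 and 1169 genes were called in WT mice. Without both replicate 2 mice of day 0, the smallest libraries, the counts were 18 at day 15, 4 in WT mice, 0 in *Hsf1* null mice and 0 for the difference in change, with 0 of the 10 in each, and *Keap1*, *Nqo1* and *Gclm* turned at day 0 to -0.17, 0.24 and 0.23 and *Hmox1* in WT mice to -0.45. These libraries hold the fewest counts, and this setting leaves 1 mouse in each day 0 group, which is assumed to vary like the other groups.

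Same-numbered mice are different animals, and their deviations from group means had correlations between -0.30 and 0.20 across genes, so the numbers were not taken as pairs. With the replicate block 343 genes were called at day 15 (1 of the 10, *Gpx2*), 0 at day 0, 868 in WT mice, 1505 in *Hsf1* null mice and 2 for the difference in change, and it changed no other call of the 10. With the WT mice of day 0 exchanged, a block added after the data were seen, 1314, 1856 and 54 genes were called at day 15, in WT mice and for the difference in change.

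Leaving out each mouse in turn, the genes called ranged from 12 to 873 at day 15, 0 to 17 at day 0, 92 to 1336 in WT mice, 0 to 1891 in *Hsf1* null mice and 0 to 50 for the difference in change. Of the 10, between 0 and 2, 0 and 0, 1 and 2, 0 and 4, and 0 and 0 were called. Signs turned as follows, with the lowest and highest log2 fold change. At day 15 these were *Srxn1* (-0.19 to 0.45), *Gclc* (-0.045 to 0.70) and *Nqo1* (-0.56 to 0.17). At day 0 they were *Hmox1* (-0.26 to 2.75), *Nqo1* (-0.76 to 0.25), *Txnrd1* (-0.13 to 0.088), *Nfe2l2* (-1.03 to 0.19), *Keap1* (-0.17 to 0.55) and *Gclm* (-0.33 to 0.12). Between the days they were *Hmox1* in WT mice (-0.44 to 2.58), and *Srxn1* (-0.23 to 0.36) and *Hsf1* (-0.52 to 0.050) in *Hsf1* null mice. For the difference in change they were *Nqo1* (-0.50 to 0.53) and *Hmox1* (-1.70 to 1.33). The cause of these changes was not tested.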

Other observations

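Outside the NRF2 targets, 19 other antioxidant enzymes were measured, and the largest differences between the genotypes at day 15 lay in 2 secreted enzymes. *Sod3*, the extracellular superoxide dismutase, had 40.6 and 26.2 CPM in untreated WT, 24.1 and 19.0 CPM in untreated *Hsf1* null, 219 and 279 CPM in treated WT, and 26.5 and 54.6 CPM in treated *Hsf1* null mice. *Gpx3*, the plasma glutathione peroxidase, had 89.6 and 78.2 CPM in untreated WT, 89.9 and 92.0 CPM in untreated *Hsf1* null, 426 and 374 CPM in treated WT, and 73.8 and 125 CPM in treated *Hsf1* null mice. In both genes the treated WT mice alone stood apart. At day 15 the log2 fold change between WT and *Hsf1* null mice was 2.62 for *Sod3* and 2.003 for *Gpx3* (adjusted p = 0.0137 for each from edgeR), and between the days in WT mice it was 2.87 and 2.25 (adjusted p = 0.00597 for each). Each call at day 15 was lost without either *Hsf1* null mouse of day 0, WT day 15 replicate 2 or *Hsf1* null day 15 replicate 1, with adjusted p between 0.0517 and 0.0771, and with only the day 15 mice in the fit (0.0687 for *Sod3* and 0.0714 for *Gpx3*). Without both replicate 2 mice of day 0 these calls were lost as well (0.0641 and 0.0682), as were those between the days in WT mice (0.116 for each). Fibroblast markers were also higher in WT mice at day 15, and their part in these values was not tested.

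The glutaredoxin genes *Glrx5* and *Glrx* lay on opposite sides of 0 between the days in both genotypes, and were called in *Hsf1* null mice. *Glrx5*, which serves the mitochondrial assembly of iron and sulfur clusters, rose from 83.1 and 40.2 CPM to 238 and 229 CPM (log2 fold change 1.90, adjusted p = 0.0152 from edgeR). *Glrx*, the cytosolic glutaredoxin, fell from 135 and 187 CPM to 63.1 and 66.6 CPM (-1.31, adjusted p = 0.0165). Both calls were lost without *Hsf1* null day 0 replicate 2 (adjusted p = 0.130 and 0.142), and that of *Glrx* also without either *Hsf1* null mouse of day 15 (0.0580 and 0.0541). Both were lost without both replicate 2 mice of day 0 (0.237 for *Glrx5* and 0.248 for *Glrx*). In WT mice *Glrx5* had 58.7 and 63.5 CPM at day 0 and 149.9 and 106 CPM at day 15 (1.07, adjusted p = 0.0745), and *Glrx* 93.4 and 92.5 CPM and then 52.1 and 64.0 CPM (-0.68, adjusted p = 0.105). Of the 19 enzymes, 2 were called at day 15, 2 in WT mice and 2 in *Hsf1* null mice, that is 10.5% each, against 3.17%, 7.74% and 11.8% of all genes.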
